A study of Equus caballus with 6 samples.

Results

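The sperm tail is built late in spermatogenesis, and the transcripts for it were read here through 55 named genes of the fibrous sheath, outer dense fibres, tektins, dynein arms, radial spokes, central pair and transport machinery. The members were the spots to which the array's gene table gives exactly 1 of these symbols. That gave 61 spots for 49 of the 55 genes, out of 53423 gene probes and 18278 genes with a symbol of their own. The data come from testicular parenchyma of 6 adult stallions, minced tissue in which tubules and interstitium are mixed. Of these, 3 were given dexamethasone, a synthetic glucocorticoid, at 0.1 mg/kg into a vein and the other 3 were given saline, all of them 10 days into their stay and 12 h ahead of removal of the testes. No strain or genotype is given in the labels. Horse RNA was read on human CodeLink arrays, 1 array for each stallion, so a dim probe does not show a rare transcript.

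The tail's core is the axoneme, a ring of doublet microtubules around a central pair. Dynein arms on each doublet hydrolyse ATP and make the doublets slide, radial spokes and the central pair control which arms work, and tektins and other inner proteins stiffen the doublet wall. Around this core, mammalian sperm carry outer dense fibres, a mitochondrial sheath in the midpiece and a fibrous sheath in the principal piece. The parts are made in haploid spermatids and reach the growing tail through intraflagellar transport and along the manchette, a transient skirt of microtubules.

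Testing was limited to probes whose spots exceeded background in 3 or more stallions and that had 2 or more usable values in each group. Levels are log2 signals after background correction and quantile normalisation, differences are dexamethasone minus saline on that scale, and their errors are limma's moderated standard errors. Of the 61 member probes 41 were tested, covering 34 genes, and 30 were above background on all 6 arrays. Above background on 3 or more arrays were 67.2% of the member probes against 51.7% of all probes with 1 symbol. For 15 genes with a probe none was tested, namely CABYR, ROPN1, ROPN1L, SPAG4, TEKT1, SPAG8, MNS1, DNAH9, SPAG1, RSPH4A, CFAP44, IFT20, IFT74, IFT88 and MEIG1. Probes of 12 of them were above background on 0 arrays, and among these the ROPN1L spot had no value on any array. RSPH1, RSPH9, AKAP14, TCTE1, DNAH8 and TEKT4 had no probe with their symbol alone, and RSPH9 shared a probe with SS18. A horse gene of the same symbol is listed in the RefSeq table of the assembly TB-T2T for 54 of the 55 members, the exception being SMCP.

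Across all arrays 42.5% to 47.8% of the gene probes were above background, at a median spot intensity of 72.6 to 79.4 over a median background of 47 to 50, and array pairs correlated at 0.982 to 0.989 across probes. Other transcripts of spermatids were present, with CAPZA3, an actin-capping subunit of the sperm head, at 12.64 and 12.47 in the dexamethasone and saline groups and ACRV1, an acrosomal protein, at 10.24 and 10.34. Of the nuclear proteins that replace histones in spermatids, TNP2 was above background on all 6 arrays, at 7.52 and 7.61, and the probes of TNP1 and PRM2 on 0 arrays. Of the 25 probes listed for spermatid genes outside the flagellum, 16 were above background on 3 or more arrays. On 0 arrays were 8, among them those of PGK2, SPAM1, CRISP2, TSSK1B and ACTL7A. Axonemal genes are also used by ciliated duct cells, and 12 genes listed for duct and multiciliated epithelium had a probe. The probes of EPCAM, KRT8, KRT18, KRT19, CRISP1 and MCIDAS were above background on 0 arrays. PAX8, PAX2, MYB and CCNO were above background on all 6, TP73 on 5 and GMNC on 3, the last 2 by their better probe. The part of duct cells in the flagellar signals was not tested.

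The flagellar genes as a whole lay close to the same level in treated and saline stallions. Of the 34 tested genes, each read by its brightest probe, 20 lay higher and 14 lower after dexamethasone, with a median log2 difference of 0.02 and a range from -0.35 to 0.78. Over all 10604 tested genes 5019 lay higher and the median was -0.01, and of all tested probes 47.5% lay above 0 and 52.5% below. In limma's test with Benjamini-Hochberg adjustment over 24590 probes, 0 of the 41 member probes passed an adjusted p of 0.05, where 0.00407% of all tested probes did. At an unadjusted p under 0.05 there were 3 member probes, SPMIP10 and TEKT2 higher and 1 of the DNAL1 probes lower, which is 7.32% of 41 against 3.29% of all tested probes. By direction those are 2 higher, against a background of 1.47%, and 1 lower, against 1.81%. The DNAL1 probe was above background in 1 of 3 treated stallions and met the filter through the saline group, where it was higher. Median scaling turned the balance to 1 higher and 2 lower, while the share over all tested probes rose to 7.31% and the median of all named genes moved to -0.08. The groups did not overlap for 2 member probes, SPMIP10 and SPAG17, both higher, against 9.27% of all tested probes in either direction, 4.2% higher and 5.07% lower. In such minced tissue fewer cells of a type and less RNA per cell cannot be told apart.

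**Figure D1:**
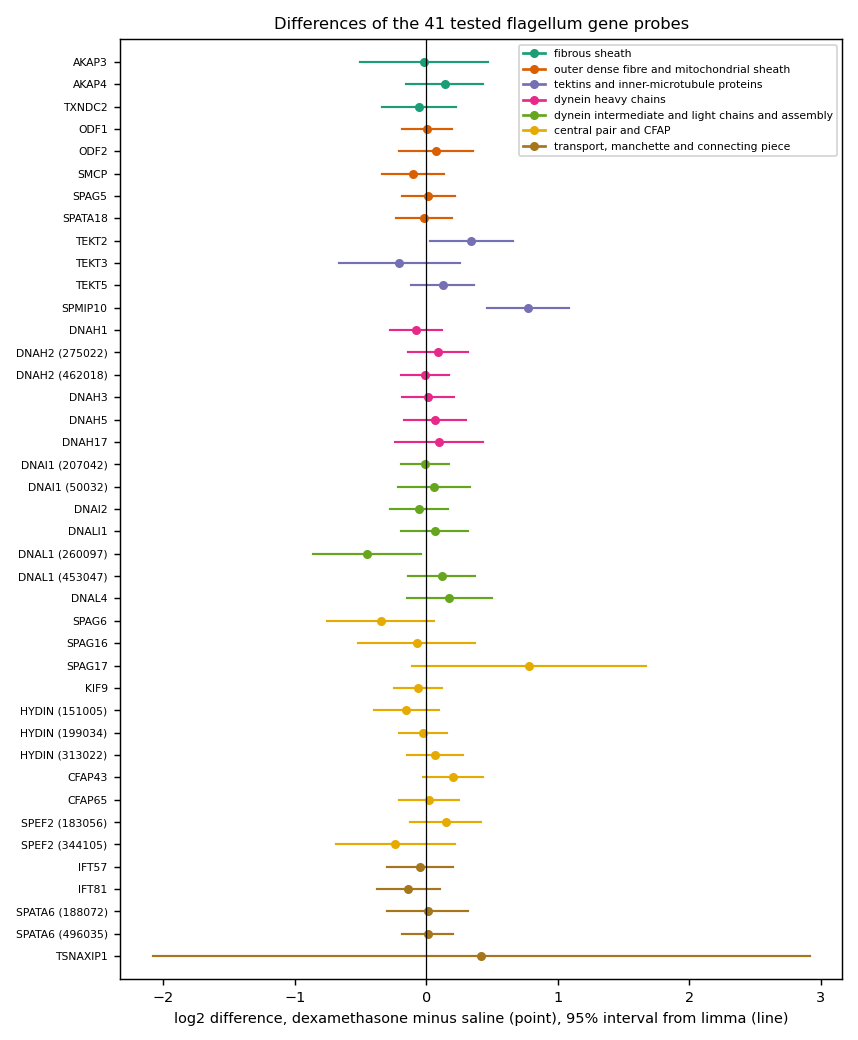
Log2 difference, dexamethasone minus saline, of each of the 41 tested probes (point) with its 95% interval from limma (line), coloured by the part of the tail. SPMIP10 lies furthest from 0 relative to its interval, at 0.78, and the intervals of 38 of the 41 probes span 0.

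Tektins and the proteins inside the doublet microtubules held the member with the smallest p. SPMIP10, a sperm microtubule inner protein that lines the lumen of the axonemal doublets, stood at 11.06, 10.64 and 10.90 in dexamethasone replicates 1 to 3. In the saline stallions 1 to 3 it stood at 10.13, 9.84 and 10.30. Each treated stallion lay above each saline stallion, by a margin of at least the distance from 10.30 to 10.64. The difference was 0.78 ± 0.14 (SE, 95% interval 0.46 to 1.09, n = 3 each), which is 1.71-fold (1.38 to 2.13). Its unadjusted p in limma's fit was 0.000266, the rank of 6 among 24590 probes, and its adjusted p was 0.999. With 3 animals against 3, no exact permutation test (two-sided) of 1 probe can fall below 0.1. The slide numbers form 2 series, of 4 and 2 arrays, and SPMIP10 differed by 0.87 inside the longer and 0.60 inside the shorter. Without each stallion in turn it differed by 0.65 to 0.89. Over the other alternatives it ran from 0.61 under median scaling to 0.86 with the median of each spot's pixels. The background-subtracted intensities behind these levels were 1993.7, 1366.3 and 1749.9 against 1309.3, 888.7 and 1176.8, so the spots were far above a background near 50.

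TEKT2, a tektin filament protein of the doublet wall, stood at 10.91, 11.31 and 10.77 after dexamethasone and at 10.52, 10.61 and 10.84 after saline. The third saline stallion lay above the third treated one, so the groups overlapped. The difference was 0.34 ± 0.14 (SE), with limma's unadjusted p = 0.0359 and adjusted p = 0.999. Among the 4 arrays of the longer slide series TEKT2 differed by 0.55 and among the 2 of the shorter by -0.06, and it differed by 0.19 without dexamethasone replicate 2. TEKT3, the tektin named for acrosome and flagellum in the mouse, stood at 10.54, 11.50 and 11.34 against 11.28, 11.42 and 11.30. A single treated stallion, replicate 1, lay below all others, and the remaining 5 spanned 11.28 to 11.50. The TEKT3 difference of -0.21 ± 0.21 (SE) became 0.09 without that stallion. TEKT5, a tektin restricted largely to sperm in rodents, differed by 0.13 ± 0.11 (SE). TEKT1, SPAG8 and MNS1, which belong to the same doublet machinery, were above background on 0 arrays. Over the 4 tested genes of this class each stallion's median deviation from the probe means was 0.07, 0.22 and 0.15 after dexamethasone and -0.13, -0.13 and -0.08 after saline, groups that did not overlap. The summed signals of the same 4 genes did overlap, at 5790 to 7241 after dexamethasone against 5310 to 5799 after saline. SPMIP10 and TEKT2, already named for their unadjusted p, are 2 of the 4. How often 4 genes taken at random would separate was not tested. Under median scaling the differences of TEKT2, TEKT5 and SPMIP10 were 0.20, 0.04 and 0.61, still above 0, and that of TEKT3 was -0.35.

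**Figure D2:**
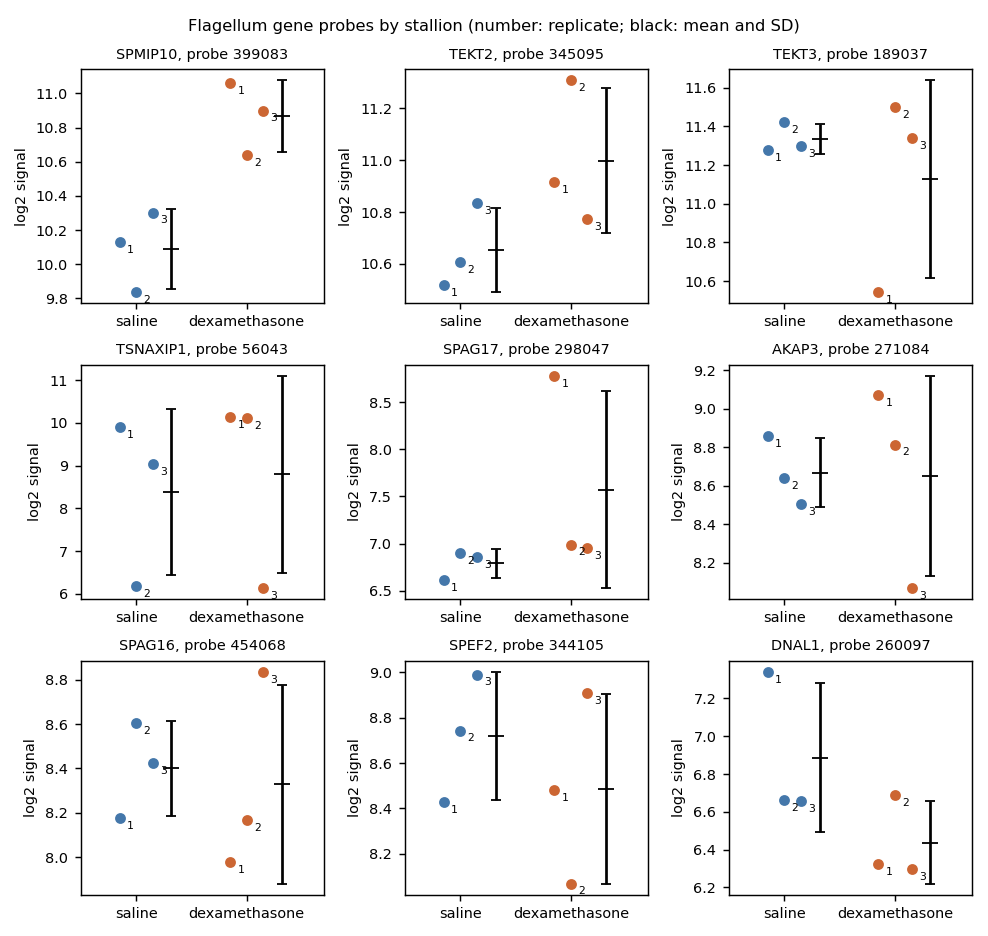
Normalised log2 signal of 9 member probes in each stallion, saline in blue and dexamethasone in orange, numbered by replicate, with the group mean and SD in black. SPMIP10 separates the groups, TSNAXIP1 falls to near background in 1 stallion of each group, and SPAG17 is high in 1 treated stallion.

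Dynein heavy chains, the motors of the arms, differed little between the groups. DNAH17, an outer arm chain of the sperm tail, stood at 9.22, 9.16 and 9.40 after dexamethasone and 8.81, 9.45 and 9.23 after saline, a difference of 0.10 ± 0.15 (SE). The saline group held both the lowest and the highest value. DNAH1, an inner arm chain, stood at 7.83, 7.82 and 7.99 against 7.96, 7.88 and 8.04, a difference of -0.08 ± 0.09 (SE). The 6 stallions stayed within a narrow band for it. Of the DNAH2 probes, another inner arm chain, the first stood at 7.12, 7.00 and 6.86 against 7.05, 6.85 and 6.82. The second DNAH2 probe stood at 7.09, 7.17 and 7.05 against 7.09, 7.19 and 7.07. Their differences of 0.09 ± 0.10 and -0.01 ± 0.08 (SE) had opposite signs and lay within their errors. DNAH3, an inner arm chain, and DNAH5, an outer arm chain of cilia, differed by 0.02 ± 0.09 and 0.07 ± 0.10 (SE), DNAH5 over 2 saline values. DNAH9, another outer arm chain of cilia, was above background in 1 of 3 treated and 0 of 3 saline stallions and was not tested. The second DNAH17 probe was above background on 0 arrays.

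Intermediate and light chains gave the only member probe that lay lower at an unadjusted p under 0.05, and that value rested on 1 spot. A probe of DNAL1, the outer arm light chain 1, stood at 6.32, 6.69 and 6.30 after dexamethasone and at 7.34, 6.66 and 6.66 after saline. It was above background in 1 of 3 treated and 3 of 3 saline stallions, so it met the filter through the saline group. Saline replicate 1 stood apart and the other values overlapped. The difference was -0.45 ± 0.18 (SE, limma's unadjusted p = 0.0346, adjusted p = 0.999), and -0.22 without that stallion (limma's unadjusted p = 0.128). In that spot the mean of the pixels was 181.1 and their median 87, with an SD of 345.1 between pixels, while the other 5 spots had medians of 67 to 95. With pixel medians in place of means, an alternative chosen after this spot was seen, the difference was -0.07 (limma's unadjusted p = 0.617). The second DNAL1 probe stood at 7.10, 6.82 and 7.19 against 7.03, 6.92 and 6.80, a difference of 0.12 ± 0.11 (SE) in the opposite direction.

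DNAI1, an intermediate chain at the base of the outer arm, stood on its brighter probe at 9.44 and 9.22 in dexamethasone replicates 1 and 3 and at 9.39, 9.31 and 9.10 after saline. Its other probe stood at 7.07, 7.10 and 7.08 against 7.16, 7.10 and 7.02. These differences were 0.06 ± 0.12 and -0.01 ± 0.08 (SE), on either side of 0. DNAI2, its partner chain, stood at 8.98, 8.83 and 8.84 against 8.93 and 8.94 in saline replicates 1 and 3, a difference of -0.06 ± 0.10 (SE). For DNALI1, an inner arm light intermediate chain, the spot of saline replicate 1 carried a quality flag and was left out. With it the difference turned from 0.06 ± 0.11 (SE) to -2.12, since that spot was 46092.5 above background against 258.8 to 352.2 on the other arrays. DNAL4, a further light chain, differed by 0.18 ± 0.15 (SE) and by -0.01 without saline replicate 3. SPAG1, a cytoplasmic factor that helps assemble dynein arms, was above background on 0 arrays.

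Among the central pair and its neighbours, the widest differences came from single spots. Each stallion had its own array, so animal, array and spot cannot be told apart. SPAG17, a central pair protein, stood at 8.78, 6.99 and 6.95 after dexamethasone and at 6.61, 6.90 and 6.85 after saline. One treated stallion lay far above the other 5, which spanned 6.61 to 6.99, and apart from that animal the groups were separated only by the distance from 6.90 to 6.95. Its difference was 0.78 ± 0.40 (SE, limma's unadjusted p = 0.0783), and 0.18 without dexamethasone replicate 1. In that stallion the pixels of the spot had a mean of 434.6 and a median of 424, against medians of 103 to 115 on the other arrays, so the high value was carried by the whole spot.

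SPAG16, the central pair protein that SPAG6 and SPAG17 bind in the mouse, stood at 7.98, 8.17 and 8.84 against 8.18, 8.60 and 8.42. The highest and the lowest value both came from treated stallions, and the difference was -0.07 ± 0.20 (SE). For SPEF2, a protein of the central apparatus needed for sperm tails in mouse and pig, the brighter probe stood at 8.48, 8.07 and 8.91 against 8.43, 8.74 and 8.99. Its second probe stood at 6.50 and 6.58 in dexamethasone replicates 1 and 3 and at 6.59, 6.33 and 6.26 after saline. The brighter and the second probe differed by -0.23 ± 0.20 and 0.15 ± 0.12 (SE). The second was above background in 2 treated and 1 saline stallions, so it met the filter mainly through the treated group, where it was higher. Its spot in dexamethasone replicate 2, at 6.6 after background subtraction, was flagged and left out. With flagged spots kept, the difference of the second probe was -0.06. SPAG6 itself differed by -0.35 ± 0.18 (SE), with 7.69 in saline replicate 1 and 6.81 to 7.10 elsewhere, and by -0.10 without that stallion. There the pixel mean of 229.4 and median of 228 were close.

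CFAP43, whose counterpart in Chlamydomonas tethers an inner arm to the doublet, stood at 9.22, 9.12 and 8.95 against 9.03, 8.85 and 8.79. The groups overlapped by 1 pair of animals, and the difference was 0.20 ± 0.10 (SE, limma's unadjusted p = 0.0743, adjusted p = 0.999). CFAP43 differed by 0.22 in the longer slide series, 0.17 in the shorter, and 0.06 under median scaling. HYDIN, a very large protein of the central pair, was read by 3 tested probes. The first stood at 6.29, 6.55 and 6.69 against 6.75, 6.59 and 6.65. The second stood at 6.68, 6.83 and 6.75 against 6.79, 6.78 and 6.76, and the third at 7.16, 7.05 and 7.00 against 6.97, 6.90 and 7.15. They differed by -0.15 ± 0.11, -0.02 ± 0.08 and 0.07 ± 0.09 (SE), so that the probes of 1 gene fell on both sides of 0. KIF9, a kinesin of the central pair, and CFAP65, a protein of the central apparatus, differed by -0.06 ± 0.08 and 0.02 ± 0.10 (SE). CFAP44, the partner of CFAP43, was above background on 0 arrays.

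The radial spoke genes among the members could hardly be read. RSPH4A, a spoke head protein, was above background on 0 arrays. Its spot in dexamethasone replicate 2, at 139.5 after background subtraction, was flagged and left out. The probe shared by RSPH9 and SS18 stood at 10.85 against 10.71, a value that belongs to neither gene alone.

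The sheaths around the axoneme showed no shift between groups that passed limma's adjusted test. ODF2, a main protein of the outer dense fibres that also sits at the centriole, stood at 12.09, 12.37 and 12.39 against 12.01, 12.44 and 12.17, a difference of 0.07 ± 0.13 (SE). SMCP, a protein of the mitochondrial capsule, stood at 7.74, 7.94 and 7.56 against 7.88, 7.81 and 7.84, a difference of -0.10 ± 0.10 (SE). Treated stallions ranged more widely than saline ones for SMCP, on both sides of them. ODF1, a further outer dense fibre protein, differed by 0.01 ± 0.08, SPAG5, a spindle protein that binds ODF1 in the rat, by 0.02 ± 0.09 and SPATA18, a mitochondrial quality factor, by -0.02 ± 0.09 (SE), SPATA18 over 2 saline values. SPAG4, a protein of the nuclear envelope that binds ODF1 in the rat, was above background on 0 arrays.

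AKAP4 and AKAP3 are anchors of protein kinase A and the main scaffold of the fibrous sheath. AKAP4 stood at 8.32, 8.86 and 8.42 against 8.39, 8.39 and 8.40. The saline stallions were nearly identical, at an SD of 0.0077, and treated stallions lay on both sides of them, with a difference of 0.14 ± 0.13 (SE). In the spot of dexamethasone replicate 2 the pixels had a mean of 406.3, an SD of 522.6 and a median of 293, the lowest median of the 6 spots, and without that stallion the difference was -0.02. AKAP3 stood at 9.07, 8.81 and 8.07 against 8.86, 8.64 and 8.50. The treated group again held the highest and the lowest animal, and the difference was -0.02 ± 0.22 (SE), or 0.27 without dexamethasone replicate 3. TXNDC2, a thioredoxin of the fibrous sheath, differed by -0.06 ± 0.13 (SE). CABYR, a calcium-binding protein of this sheath, was above background in 1 of 3 saline and 0 of 3 treated stallions. The 2 probes of ROPN1, which binds AKAP3, were above background in 0 saline stallions and in 0 and 2 treated stallions.

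Transport and assembly genes held the widest gap between the spots of different animals. TSNAXIP1, named for binding translin-associated factor X, stood at 10.14, 10.11 and 6.13 after dexamethasone and at 9.90, 6.18 and 9.04 after saline. In 1 stallion of each group, dexamethasone replicate 3 and saline replicate 2, the spot was not above background, at 16.0 and 19.9 intensity units after subtraction. The other 4 stallions gave 461.3 to 1097.5. The pattern followed no treatment, with a difference of 0.42 ± 1.12 (SE), and neither low spot carried a flag other than that for low signal. The low stallions belonged to different slide series.

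SPATA6, a protein of the connecting piece between head and tail, stood at 14.82, 14.75 and 14.75 against 14.82, 14.64 and 14.82, a difference of 0.01 ± 0.09 (SE), with the spots of dexamethasone replicate 2 and saline replicate 1 saturated. The difference of this probe ran from -0.32 with pixel medians to 0.16 with cyclic loess, so little can be read from its small spread. A dimmer tested SPATA6 probe, at a mean of 6.39 after dexamethasone and 6.38 after saline, differed by 0.01 ± 0.14 (SE). It was above background in 2 treated and 1 saline stallions. IFT81, a core subunit of intraflagellar transport complex B, stood at 9.93, 10.10 and 9.95 against 9.96, 10.33 and 10.09, a difference of -0.14 ± 0.11 (SE). IFT57, of the same complex, differed by -0.05 ± 0.11 (SE). IFT20, IFT74 and IFT88, further subunits, and MEIG1, which brings cargo along the manchette in the mouse, were above background on 0 arrays.

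**Figure D3:**
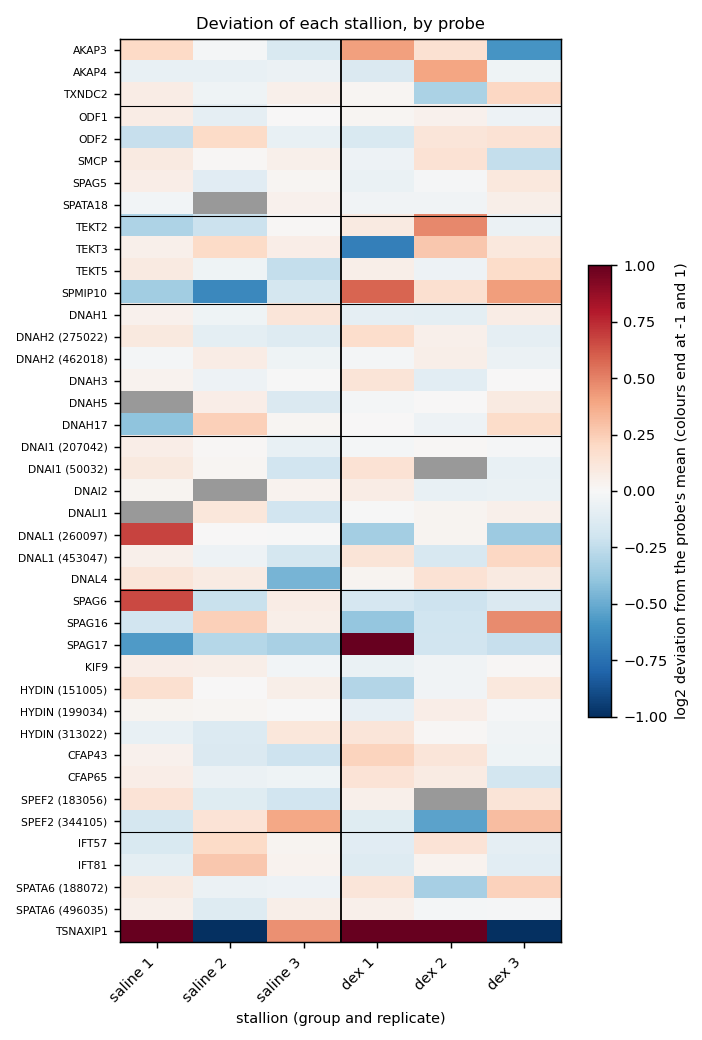
Deviation of each stallion from the mean of each tested member probe, on the log2 scale, with saline stallions left of the line, dexamethasone stallions right of it, and spots left out in grey. Colours end at -1 and 1, which TSNAXIP1 and SPAG17 pass, and SPMIP10 is the row that is blue in all 3 saline stallions and red in all 3 treated ones.

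Several member probes varied widely between stallions, each of them read on its own array. The SD within groups, pooled over both, had a median of 0.145 over the 41 tested member probes, from 0.0469 for a KIF9 probe to 2.13 for TSNAXIP1, beside a median of 0.117 over all tested probes. Of the member probes 13 (31.7%) lay above the SD that 10% of all tested probes exceed. Over all 6 stallions of both groups, the distance from the lowest to the highest was over 1 for 5 member probes (12.2%), those of TSNAXIP1, SPAG17, SPMIP10, DNAL1 and AKAP3, beside 1.27% of all tested probes. For SPMIP10 that distance of 1.22 includes the difference between the groups, and for DNAL1 it rests on the spot of uneven pixels in saline replicate 1. It was over 3 for 1 member, TSNAXIP1, and for 11 of the 24590. A total of 2 probes on the array had a pooled SD at least that of TSNAXIP1, and 40 had one at least that of SPAG17. Among 95 tested probes of other flagellum genes 2.11% had a distance over 1, and among 16 of other spermatid genes 0 had. These shares are descriptions with no test, over members that were chosen with results of these data known, and the member probes had a median level of 7.80 against 7.47 over all tested probes.

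**Figure D4:**
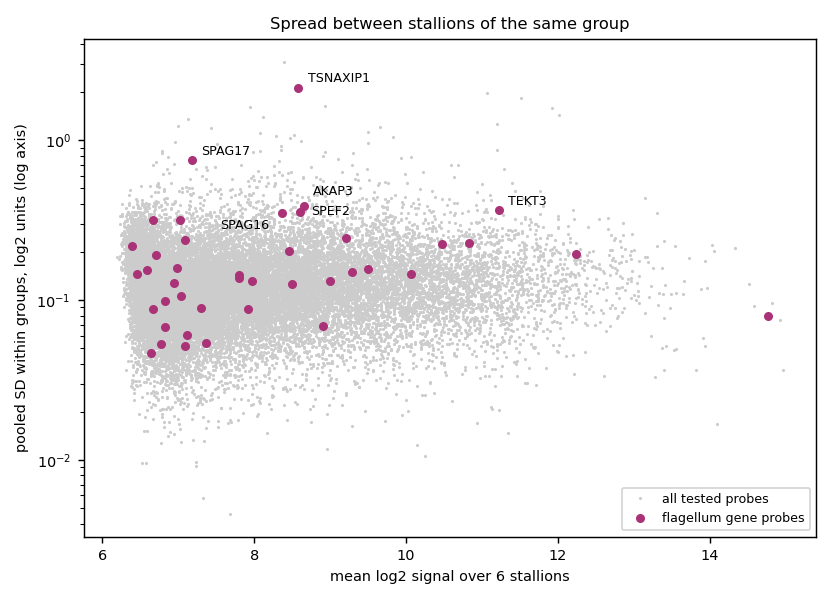
Pooled SD within groups against mean log2 signal, for all 24590 tested probes (grey) and the 41 member probes (purple), with the SD on a log axis. TSNAXIP1 at 2.13 and SPAG17 at 0.748 lie above nearly all probes of like signal, and most members lie within the grey cloud.

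No stallion lay above or below the others across the flagellar genes as a set. Over the 29 tested members with values in all 6 stallions, the median deviation from the probe means was 0.02, 0.04 and -0.01 in the treated and 0.04, -0.04 and 0.01 in the saline stallions. The group means were 0.014 ± 0.026 and 0.003 ± 0.043 (SD, n = 3 each). Between 37.9% and 58.6% of the members lay above their mean in each stallion, saline replicate 2 having the fewest. Other spermatid genes gave a median difference of -0.00 over 16 tested, 8 higher and 8 lower, with summed signals over the 15 with complete values of 12332 to 13470 after dexamethasone and 11955 to 12828 after saline. Spermatocyte genes gave -0.07 over 13 tested, 10 of them lower, and summed signals of 9805 to 10348 against 9218 to 11142.

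**Figure D5:**
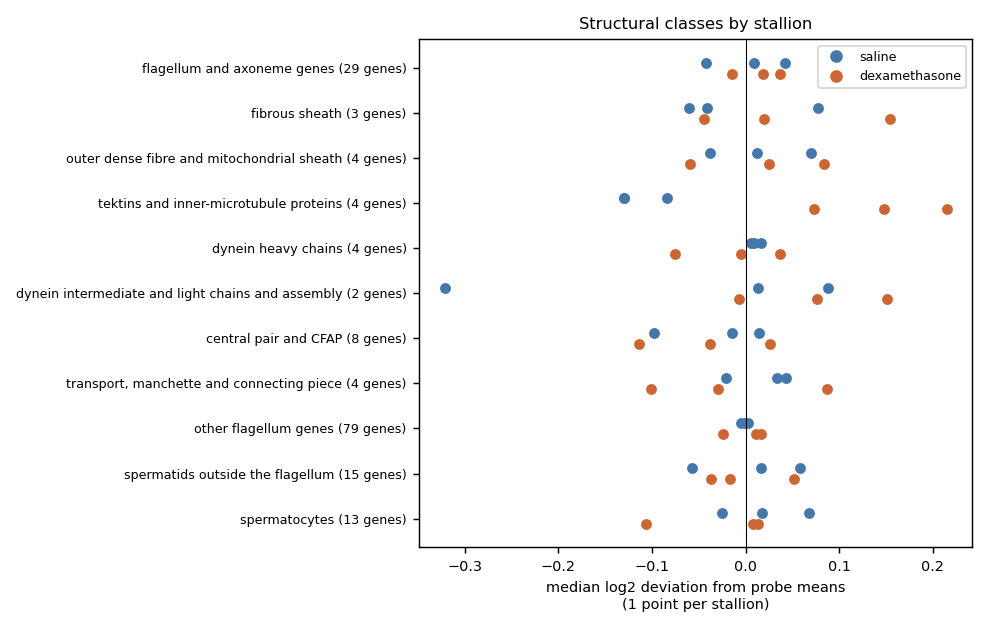
Median log2 deviation from the probe means in each stallion (1 point each, saline blue, dexamethasone orange), by part of the tail and for 3 comparison lists. Among the rows shown, only the tektin and inner-microtubule class of 4 genes separates the groups, at 0.07 to 0.22 against -0.13 to -0.08. The lists of all 29 members and of 79 other flagellum genes lie close to 0 in every stallion.

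The summed signals of every tail class with tested genes, and of all but 3 of the cell type lists, overlapped between the groups. With 3 animals against 3, no exact permutation test (two-sided) of 1 list can fall below 0.1. For those 3 lists the summed signals did not overlap. They were 5598 to 6001 against 6257 to 7298 for 4 Leydig cell genes, 500 to 517 against 568 to 580 for 3 peritubular myoid genes, and 1405 to 1474 against 1482 to 1520 for 4 genes of the duct epithelium list, each lower after dexamethasone. Over all tested genes of each list, 4 of 7 Leydig genes lay higher with a median difference of 0.00, and their median deviations in the stallions overlapped between groups. The Leydig sum was led down by INSL3, at -1.21 on its brighter probe. Its other tested probe differed by -0.52, with overlapping groups. Of the duct genes 3 of 6 lay higher with a median of -0.03, and of the peritubular genes 0 of 3 with a median of -0.20. The duct list's median deviations in the stallions did not overlap either, at -0.018 to 0.0002 after dexamethasone against 0.002 to 0.085 after saline. The part of these 3 lists in the SPMIP10 difference was not tested.

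The wider set of flagellar genes, taken from a list of 219 current and older symbols that leaves the members out, was divided between higher and lower. Of its 152 genes with a probe 85 were tested, 41 lay higher and 44 lower, and the median difference was -0.01. None of its 95 tested probes passed limma's adjusted p, and 5 had an unadjusted p under 0.05 (5.26%, beside 3.29% of all tested probes), 3 higher and 2 lower. The groups did not overlap for 11 (11.6%, beside 9.27%). SAXO1, a microtubule inner protein of cilia and sperm tails, stood at 11.18, 11.58 and 11.16 after dexamethasone and at 10.91, 11.09 and 10.91 after saline, a difference of 0.34 ± 0.12 (SE). PIERCE2, a protein inside the doublets of cilia, stood at 6.72, 6.87 and 6.71 against 6.44, 6.28 and 6.66, a difference of 0.30 ± 0.11 (SE). IFT27, a small GTPase of intraflagellar transport, differed by 0.24 ± 0.09 (SE) on this probe and by -0.08 ± 0.08 (SE) on its other tested probe. CFAP74, of the central pair, differed by -0.29 ± 0.10 and CETN1, a centrin of the sperm centriole, by -0.22 ± 0.08 (SE). These 5 probes had non-overlapping groups, and limma's adjusted p was 0.999 for each.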

How the data were processed

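Total RNA from the testis parenchyma of 6 stallions was hybridised to human CodeLink arrays in 1 colour, per the labels' protocols. The deposited scanner files hold, per the file headers, each spot's mean and median intensity, its local background intensity, a quality flag and a signal strength score. For the flags, software and rule were not given in the sources used here. Scaled intensity, also deposited by the authors, served as an alternative.

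Spot means were background-corrected with normexp (offset 50) over all spots, spots flagged C, I or P were treated as missing, control probes were dropped, and values were quantile-normalised and put on a log2 scale. limma 3.58.1 under R 4.3.3 fitted the 6 arrays as 2 groups (lmFit, eBayes) over 24590 probes above background on 3 or more arrays, with Benjamini-Hochberg adjustment. The p-values set each group difference against the variation within groups, moderated over all tested probes. With 1 array per stallion, that variation mixes differences between stallions with those between arrays and spots. On simulated data with 200 changed probes among these 24590, 71.6% of those set to change 1.5-fold were recovered, against 98.5% at 2-fold and 100% at 4-fold. The simulated errors were normal, with variances drawn from limma's fitted prior. The planted changes also make the adjusted threshold easier to pass than in the real data, where 1 probe passed. These shares therefore do not give the power for the member probes. The number of arrays limits the precision. Gene names come from the platform annotation. Figures were drawn with Python 3.11.15 and matplotlib 3.10.9.

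Every member was accounted for. Values in each stallion were given for members with non-overlapping groups and an unadjusted p under 0.05, for the 2 brightest genes of each class, for the 6 probes of largest SD and for genes whose probes differed in sign. SPAG6 fell outside this rule and was described after its values were seen. The members and lists were chosen with earlier results of these data known. Replicates were numbered in the order of the records and pair no animals.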

Additional observations from a re-analysis of the deposited data

How the results depend on the processing

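No member probe passed limma's adjusted p of 0.05 in any alternative in which it was tested, whether each stallion was left out in turn, or the background correction, normalisation, authors' scaling, filter, flags, variance model, slide block, probe rule or pixel summary was changed. In the reported fit 3 probes had an unadjusted p under 0.05. Leaving out a stallion gave 2 to 6 such probes, the 6 without dexamethasone replicate 3, where 4.56% of all tested probes passed (2.51% to 4.56% over the 6 fits). With median scaling the median difference over the 34 genes was -0.043, the difference in the stallions' median deviation was -0.062 and 8 probes had non-overlapping groups in place of 2, beside 14.6% of all tested probes, while the median over all named genes was -0.08. With no filter on background 4 probes did not overlap, beside 10% of all probes. With 1 stallion left out there were 4 to 11, namely 4, 8 and 11 without dexamethasone replicates 1, 2 and 3 and 4, 4 and 5 without saline replicates 1, 2 and 3, where 16.9% to 20.4% of all tested probes did not overlap. The cause of these shifts was not tested, except that fewer animals overlap less often by construction. Of 793 probe values over the alternatives 82 had the opposite sign, 7 of them at a reported difference of 0.2 or more. No paired analysis was possible because the replicate numbers follow only the order of the records. Dim spots, with signals near a background of about 50, limit what can be read of the 15 untested genes.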
